A study of Drosophila melanogaster with 16 samples.

Results

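Psi binding in the larval wing disc was described from the 1710 peaks called for the Psi-Dam fusion against Dam alone at a false discovery rate (FDR) of 1%. All peaks of that list were taken, 1710 of the 5229 peaks in the 3 deposited peak lists of the series, beside 1568 for RNA Polymerase (RNA Pol) and 1951 for Myc. Binding was mapped with Targeted DamID (TaDa), in which the bacterial enzyme Dam is joined to a protein of interest and methylates adenine in GATC sites close to where that protein sits. The list came from 3 Psi-Dam samples, and each was set against Dam-only DNA. Psi-Dam samples 1 and 3 shared Dam-only sample 1, and Psi-Dam sample 2 used Dam-only sample 2. Both groups carried *sd*-GAL4 with *tub*-GAL80ts, so that a UAS transgene for Psi-Dam or for Dam was expressed where *scalloped* is active. Female larvae from lays of under 4 h at 25°C were kept at 18°C for 7 days and then at 29°C for 24 h before their wing discs, at the third instar, were collected as pooled tissue. In such a list the share of cells that carry a methylated site and the strength of methylation in each cell cannot be told apart. The 3 Psi-Dam samples were averaged before peaks were called, so no value below has a replicate error and no test was made; the read depth behind the peaks is unknown.

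Psi, for P-element somatic inhibitor, is the *Drosophila* relative of the mammalian far upstream element binding proteins (FUBPs). These proteins bind single-stranded nucleic acid through K homology (KH) domains, and have been studied both as regulators of transcription, with *MYC* as the best known target in human cells, and as splicing factors. The wing disc is the epithelial sac that grows and is patterned through the larval stages to form the adult wing and notum.

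Binding at marker genes of tissues was described. A peak list does not measure expression, so these counts are not a check of the tissue label. For comparison, 7.92% of all protein-coding genes had a Psi peak within 1 kb. In the longest of 5 classes of genes by length (from 6.46 kb) the share was 23.7%. A Psi peak lay within 1 kb of 6 of 7 wing disc genes: *nub*, *ap*, *en*, *vg*, *rn* and *sd*, with top scores from 1.38 at *en* to 2.36 at *vg*. *wg* had none. None of 4 neuronal genes (*elav*, *brp*, *nSyb*, *futsch*), 4 haemocyte genes or 3 fat body genes had a Psi peak. Lists of 3 or 4 genes are too short for the absence of a peak to tell tissues apart at these shares. In the lists for other cells of the disc, 2 of 4 myoblast genes (*twi* and *zfh1*), 1 of 3 tracheal genes (*trh*) and 1 of 5 genes of leg and other discs (*Dll*, which is also expressed in the wing) had one. The part of these other cells in the peaks was not tested. RNA Pol peaks lay within 1 kb of 4 of the 7 wing disc genes, with none at *wg*, *ap* or *en*. For comparison, they did so for 13.6% of all protein-coding genes and 30.0% of the longest class. RNA Pol peaks also lay within 1 kb of 1 of 4 neuronal genes (*elav*) and 3 of 5 genes of leg and other discs (*dac*, *Dll* and *Ubx*). The same held for 1 of 4 myoblast genes (*twi*) and 2 of 3 tracheal genes (*trh* and *bnl*). No haemocyte or fat body gene had an RNA Pol peak.

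A peak in this list is a run of neighbouring GATC fragments, and every one of the 1710 peaks began and ended at a GATC site of the Release 6 genome, the build of the files. Sequences of short peaks are given here because they show how few sites can make a peak. Those below are the bases of the plus strand with GATC in capitals. They come from the peak of *RpL3* (a protein of the large ribosomal subunit; chr3R:11224193-11224464, the shortest of the 10 highest-scoring peaks), from a peak inside an intron of *hth* (chr3R:10533025-10533281), from another inside an intron of *ko* (chr3L:21110875-21111131) and from one that lies in no protein-coding gene in the group of peaks at *mab-21* (chrX:6022760-6023016).

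RpL3: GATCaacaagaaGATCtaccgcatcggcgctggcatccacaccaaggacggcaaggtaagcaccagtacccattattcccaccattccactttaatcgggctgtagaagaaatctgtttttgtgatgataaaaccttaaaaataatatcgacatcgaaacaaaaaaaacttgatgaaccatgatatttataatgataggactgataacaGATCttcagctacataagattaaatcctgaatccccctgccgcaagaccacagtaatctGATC

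hth: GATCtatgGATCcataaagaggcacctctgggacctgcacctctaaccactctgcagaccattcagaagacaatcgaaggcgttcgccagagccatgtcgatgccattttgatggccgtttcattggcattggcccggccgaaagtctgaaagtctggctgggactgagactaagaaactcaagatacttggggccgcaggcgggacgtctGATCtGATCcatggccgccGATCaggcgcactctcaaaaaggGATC

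ko: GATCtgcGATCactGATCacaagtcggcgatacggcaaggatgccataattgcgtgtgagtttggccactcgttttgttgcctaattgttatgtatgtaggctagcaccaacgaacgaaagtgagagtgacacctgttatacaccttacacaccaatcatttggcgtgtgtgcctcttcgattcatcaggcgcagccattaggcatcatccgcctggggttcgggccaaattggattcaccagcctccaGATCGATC

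mab-21 group: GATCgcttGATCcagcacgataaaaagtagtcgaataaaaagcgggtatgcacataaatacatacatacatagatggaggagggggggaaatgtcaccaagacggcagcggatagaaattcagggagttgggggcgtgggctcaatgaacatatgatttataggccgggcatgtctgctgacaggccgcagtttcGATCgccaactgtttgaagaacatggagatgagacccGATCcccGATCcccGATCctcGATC

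The *RpL3* peak had 4 GATC sites in 272 bases, a score of 2.79 and an FDR of 0.00126, and 79.8% of it was intron. The *hth* peak had 6 sites in 257 bases and the *mab-21* peak 7, with scores of 1.34 and 1.43 and FDRs of 0.000278 and 3.69e-06. The *mab-21* peak had the lowest FDR and the *RpL3* peak the highest score, so that score and FDR did not rank these peaks alike. GAGAG, or CTCTC on the other strand, occurred 1 time in each of the *hth* and *ko* peaks and not in the other pair.

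A further pair of sequences shows a promoter inside a Psi peak and the centre of the peak with the highest score. The first holds the 250 bases upstream of the annotated start of *stg*, the Cdc25 phosphatase that drives entry into mitosis (chr3R:29255801-29256050, minus strand, as the gene reads). The second holds the middle 300 bases of the peak in *mod(mdg4)*, a BTB-domain chromatin protein gene (chr3R:21374898-21375197, plus strand).

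stg upstream: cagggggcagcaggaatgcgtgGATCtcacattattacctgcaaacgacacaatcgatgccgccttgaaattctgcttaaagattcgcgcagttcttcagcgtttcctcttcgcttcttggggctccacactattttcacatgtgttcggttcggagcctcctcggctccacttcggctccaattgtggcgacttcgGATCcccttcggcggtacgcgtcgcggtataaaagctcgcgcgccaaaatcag

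mod(mdg4): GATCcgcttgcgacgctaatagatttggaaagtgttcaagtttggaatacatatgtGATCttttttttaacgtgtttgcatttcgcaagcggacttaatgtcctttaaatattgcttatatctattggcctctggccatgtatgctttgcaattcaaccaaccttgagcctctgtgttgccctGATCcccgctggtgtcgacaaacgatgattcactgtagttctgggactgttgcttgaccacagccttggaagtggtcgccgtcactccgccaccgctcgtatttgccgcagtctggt

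The *stg* stretch had 2 GATC sites and no GAGAG, and belonged to a peak of 2195 bp with a score of 2.24. The *mod(mdg4)* stretch had 3 sites and was 54% intron and 46% coding sequence. Its peak scored 3.44, the highest value in the list.

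Psi peaks were 215 to 10522 bp wide, with a median of 1555 bp and an interquartile range of 1015 to 2390 bp. They spanned a median of 5 GATC fragments and a maximum of 35, and covered 3.2 Mb, 2.39% of the 6 chromosome arms. Of the 1710 peaks, 51 (2.98%) exceeded 5 kb, against 26 (1.66%) for RNA Pol and 12 (0.615%) for Myc. Another 81 (4.74%) were under 500 bp. GATC sites were denser inside Psi peaks than in the arms, with a mean fragment of 288 bp against 358 bp. Myc peaks were alike in this respect (284 bp), and RNA Pol peaks had longer fragments (390 bp). The part of site density in where peaks were called was not tested.

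Wider peaks had higher scores. With the list in 5 classes of near-equal size by width, the median score of the narrowest class (215 to 929 bp) was 1.71 and the median FDR 0.00126, with 4 fragments a peak. In the widest class (2621 to 10522 bp) the median score was 2.02 and the median FDR 4.67e-10, with 9 fragments. The formula of the score was not given in the sources used here, so scores were used only to rank peaks within the list. Over all Psi peaks they ran from 1.30 to 3.44 with a median of 1.84.

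The widest peak lay in *osa*, which encodes a subunit of a SWI/SNF chromatin remodelling complex. It was 10522 bp wide with a score of 2.28, and 95.1% of it was intron. Next came peaks in *Dll* (9119 bp), the homeodomain gene of distal appendages, in *ec* (8851 bp), and in *ex* (8734 bp), an upstream component of the Hippo growth pathway. These were 97.9%, 95.4% and 92.2% intronic. A peak of 8599 bp was next and spanned *Pgk*, which encodes a glycolytic enzyme, and 3 neighbouring genes, and held a start site.

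The 10 highest scores belonged to a mixed set of places. After *mod(mdg4)* came *boi*, a Hedgehog co-receptor gene, with a peak of 4702 bp and a score of 3.29. The third and the fourth lay in *Psi* itself, with scores of 3.22 and 3.18. Coding sequence made up 61.6% of the first of these and 47.9% of the second, against 3.29% of all Psi peak bases. The Psi-Dam transgene carries the *Psi* coding sequence, and reads from it and from the resident gene cannot be told apart in a peak list. A peak of 7044 bp and 35 fragments at *dob* and *Lsd-2*, genes of lipid storage, had a score of 3.00 and the lowest FDR of the list, 2.84e-49. The others lay across the facing downstream ends of *RhoGAP100F* and *heph* (2.95), at *TFAM*, a mitochondrial transcription factor (2.94), outside protein-coding genes on 3L (2.88), at *Shal*, a potassium channel (2.87), and at *RpL3* (2.79).

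Psi peaks lay close to one another more often than those of the other lists. The median gap between neighbouring peaks was 15.4 kb, against 34.3 kb for RNA Pol and 28.4 kb for Myc, while the mean gap was 69.9 kb. Of 1704 gaps, 753 (44.2%) were at most 10 kb, against 26.2% and 26.7%. Gaps under 500 bp numbered 172 (10.1%), so some groups of peaks could be read as a single broader domain that was divided in the calling. On the 5 large arms the density was even, from 12 peaks per Mb on 3R to 13.6 on 3L, and chromosome 4 had 12 peaks, or 8.90 per Mb. The longest stretches with no peak were 2018 kb, 1110 kb and 1041 kb on 3L and 1457 kb and 1273 kb on X.

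**Figure D1:**
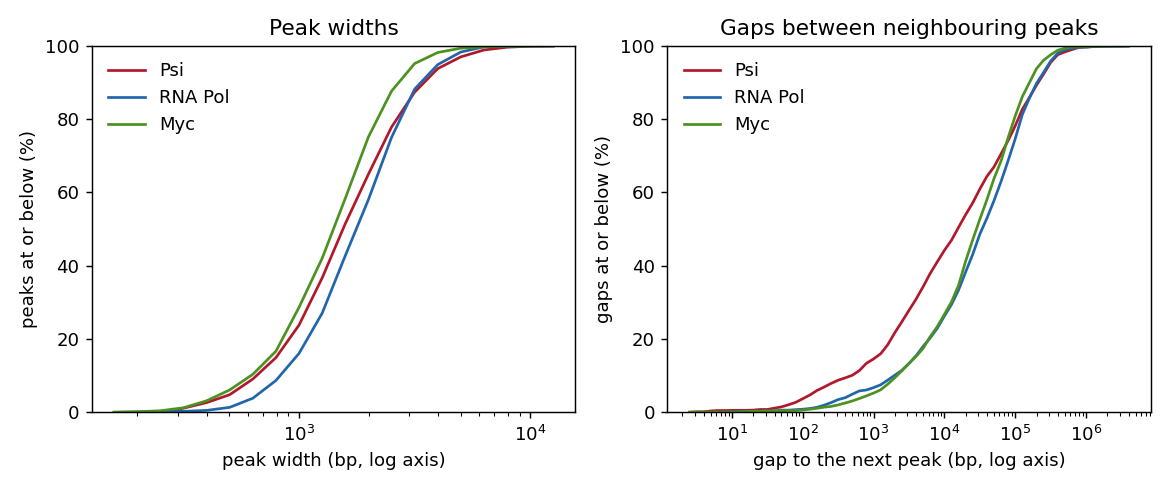
Cumulative share of peaks by width (left) and of gaps between neighbouring peaks on an arm (right) for the Psi, RNA Pol and Myc lists, both on log axes in bp. The Psi curve for gaps lies above the others at short distances, with 44.2% of gaps at most 10 kb.

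Peaks separated by at most 10 kb were joined into groups. This gave 957 groups, of which 635 were single peaks (37.1% of peaks, against 56.0% for RNA Pol and 54.6% for Myc). There were 53 groups of 5 or more peaks that held 391 peaks (22.9%), against 14 groups with 5.17% of RNA Pol peaks and 12 with 3.43% of Myc peaks. In windows of 100 kb the same unevenness was seen: 678 of 1342 windows (50.5%) had no Psi peak, while the 84 windows with 5 or more held 35.6% of them (RNA Pol 16%, Myc 18.8%). Peaks in groups of 5 or more differed little in score from single peaks, with medians of 1.89 and 1.76 and interquartile ranges of 1.65 to 2.10 and 1.59 to 2.00. The number of groups of 5 or more depended on the setting: it was 30 when only the 1225 peaks at an FDR of 0.1% were used, and 34 when peaks under 500 bp apart were merged.

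The largest group had 15 peaks over 53.6 kb and lay in *br*, the ecdysone-response BTB zinc finger gene, which shares this stretch with *Mur2B* on the opposite strand. Peaks covered 54.7% of it, with 3 RNA Pol and 2 Myc peaks in the same span. The second had 14 peaks over 63.1 kb at *heca* (*headcase*) and reached past the start of the gene. The third had 13 peaks over 52.1 kb at *Ser*, which encodes a Notch ligand, with 4 RNA Pol and 4 Myc peaks in the same span. The next, of 12 peaks each, lay at *bi* (*optomotor-blind*, a T-box gene of the Dpp response), at *nub* and *pdm2* (paired POU homeodomain genes) with *Ref2* between them, at *Samuel*, at *inv* and *en* (paired homeodomain genes of the posterior compartment) and across the downstream end of *ds* (an atypical cadherin of the Fat pathway). In the group at *nub*, *nub* was overlapped by 7 peaks, *Ref2* by 6 and *pdm2* by 1. The group of 12 at *ds* held no RNA Pol peak and 3 Myc peaks.

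Several of the 53 groups lay at genes of the signalling pathways that pattern the wing. The Enhancer of split complex, whose genes answer to Notch, had 11 peaks over 28.3 kb that covered 66.1% of the stretch. The group at *Delta*, another Notch ligand, had 8 peaks over 43.6 kb, 4 of them in the gene. The receptor gene *N* had 5 over 27.4 kb, all in the gene, and the group at *fng*, which modifies Notch, had 6 with 2 in the gene. From the Dpp pathway the receptor gene *tkv* and the transcription factor gene *shn* held 6 peaks each and the inhibitor gene *Dad* held 5. From the Wnt pathway *fz3* held 5 peaks of a group of 8 shared with 3 neighbours, and *Notum* held 3 of 5. From growth and death control, *Egfr* held all 7 peaks of its group, *aop* (an ETS repressor below it) 7 of 8, *hid* (an activator of cell death) 3 of 7, *E2f1* (a regulator of the S phase) all 5 and *fj* (a kinase of the Fat pathway) 2 of 6. These genes are named for their roles after their values were seen, and no theme was tested for enrichment.

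Groups of 5 or more spanned 9.79 to 67.5 kb with a median of 27.3 kb, and peaks covered 27.6 to 83.2% of each span. In 18 of the 53, every peak overlapped the same gene. In 7, no protein-coding gene was overlapped at all. Of these, 1 had 6 peaks over 11.9 kb, lay beside *drm* and held no RNA Pol peak. Of the 53 groups, 2 held no RNA Pol peak and 1 held no Myc peak.

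Most Psi-bound sequence was intronic. Each base was put in 1 class from all annotated transcripts, with coding sequence first, then untranslated regions (UTRs), then intron. Intron made up 59.8% of Psi peak bases, against 42.1% of the arms, 51.9% of RNA Pol peaks and 40.7% of Myc peaks. Coding sequence made up 3.29%, against 17.1% of the arms, 6.26% of RNA Pol peaks and 13.7% of Myc peaks. Bases of 5′ UTRs made up 5.01% (arms 3.06%, RNA Pol 12.3%, Myc 13.9%), and bases in no gene 24.0% (arms 27.5%). With a single transcript for each gene the intron share was 53.7%.

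**Figure D2:**
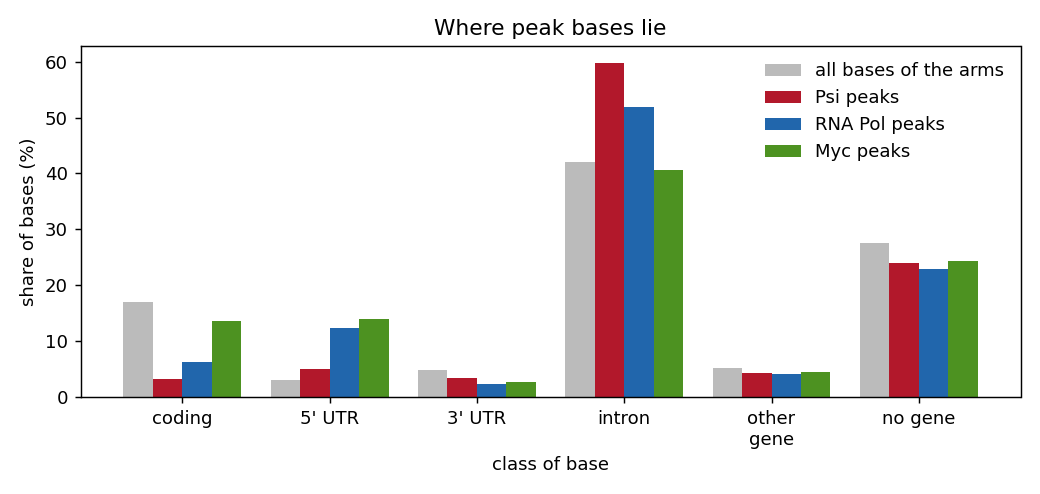
Share of bases (%) in each class for all bases of the 6 arms (grey) and for the peaks of Psi, RNA Pol and Myc. Psi peaks had the highest intron share (59.8%) and the lowest coding share (3.29%) of the lists.

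The intron share differed by arm. It was 71.1% on X and 68.8% on 2R, 59.0% on 2L and 58.0% on 3R, and 45.5% on 3L and 39.1% on the short chromosome 4. The arms themselves were alike, from 39.4% on 2L to 45.9% on 3R. On 3L and 4 the share in Psi peaks was therefore close to that of the arm or below it (39.9% and 45.3%).

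By whole peaks, 587 (34.3%) lay wholly in introns, 429 (25.1%) outside protein-coding genes, and 360 (21.1%) touched an exon without holding a start site. The remaining 334 (19.5%) held an annotated transcription start site, against 820 (52.3%) of RNA Pol peaks and 1107 (56.7%) of Myc peaks. With the outermost start of each gene alone, 204 Psi peaks (11.9%) held one. The median distance from a Psi peak to the nearest start was 2.70 kb, and 335 peaks (19.6%) were more than 10 kb away, against 175 (11.2%) for RNA Pol. Scores did not separate these places: the medians were 1.82 with a start site, 1.85 wholly in introns and 1.84 outside genes.

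Introns with a Psi peak were long. Of 50614 introns, 1249 were touched by a peak (2.47%), and their median length was 3.39 kb against 0.077 kb for all introns. A peak touched 0.470% of introns under 0.2 kb, 7.14% of those of 1 to 5 kb and 23.9% (124 of 519) of those of 20 kb or more. A long intron offers more bases, and the share of intron bases in peaks did not rise throughout: it was 0.567% under 0.2 kb, 4.15% at 1 to 5 kb, 4.10% at 5 to 20 kb and 2.60% at 20 kb or more. Among the longest introns a Psi peak touched 32.8% of first introns and 20.7% of later ones; at 1 to 5 kb the values were 7.62% and 6.95%. For RNA Pol the share of bases fell with length, from 6.54% in first introns of 1 to 5 kb to 1.66% in those of 20 kb or more, while Psi had 4.37% and 4.00%. In later introns both fell, Psi from 4.06% to 2.18% and RNA Pol from 3.28% to 1.30%.

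**Figure D3:**
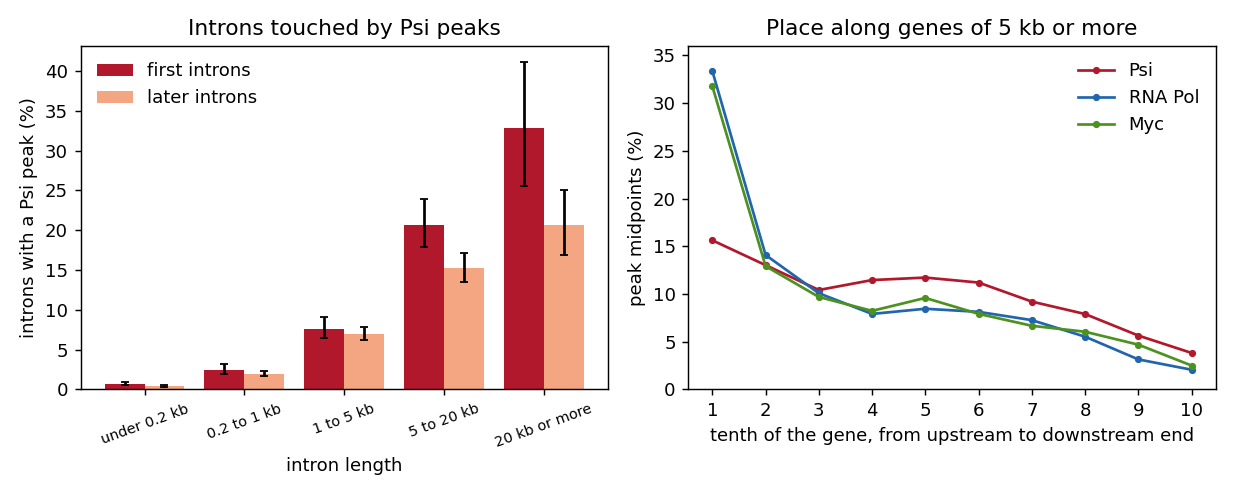
Left, share of introns touched by a Psi peak (%) by intron length, for first and later introns, with 95% Wilson intervals that cover counting only. Right, share of peak midpoints (%) in each of 10 equal parts of genes of 5 kb or more, from the upstream end, for Psi (1152 pairs of a peak and a gene), RNA Pol (923) and Myc (960); 15.6% of Psi midpoints fell in part 1, against 33.4% and 31.8%.

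The intron with the most bases in Psi peaks was intron 2 of *Mur2B*, with 22.2 of 46.0 kb in 13 peaks; it overlaps the downstream part of *br*. RNA Pol peaks covered 0.604 kb of this intron and Myc peaks none. It was followed by intron 3 of *Bx* (16 of 30.9 kb), a LIM-only gene of the dorsal wing, intron 6 of *bi* (15.6 of 27.1 kb), intron 2 of *ds* (13.6 of 48.5 kb) and intron 2 of *inv* (13.2 of 27.7 kb). Intron 3 of *Dll* was covered over 97.9% of its 13.4 kb. In *dlp*, a glypican gene that shapes Wingless and Hedgehog gradients, intron 1 had 4 peaks over 11.7 of 30.9 kb. In *bi* and *Bx* RNA Pol peaks covered 6.39 and 9.26 kb of the same introns.

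Along genes of 5 kb or more, Psi peak midpoints were spread widely. With each gene in 10 equal parts, the most upstream part held 15.6% of them and the most downstream 3.82%, and each of parts 4 to 6 held 11.2 to 11.7%. RNA Pol and Myc midpoints were gathered at the upstream end, with 33.4% and 31.8% in part 1.

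Psi peaks overlapped 875 of 13945 protein-coding genes (6.27%), and 1104 (7.92%) had one within 1 kb. Both shares were lower than for RNA Pol (11.2% and 13.6%) and Myc (15% and 19.2%), although the lists held like numbers of peaks. Bound genes were mostly long: with genes in 5 classes of near-equal size by length, a Psi peak lay within 1 kb of 3.04% of the shortest class (up to 1.02 kb), 6.10% of class 4 and 23.7% of the longest class (from 6.46 kb). The part of length in the counts of bound genes below was not tested. Median lengths are given in kb beside the counts.

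Psi peaks often came several to a gene. Of the 875 overlapped genes, 625 had 1 peak, 118 had 2, 62 had 3, 29 had 4 and 41 had 5 or more. The 250 genes with 2 or more were 1.79% of all protein-coding genes and 28.6% of the overlapped ones. For RNA Pol these shares were 1.37% and 12.3%, and for Myc 1.63% and 10.9%. Genes with 5 or more peaks held 284 Psi peaks (16.6%), 3.25% of RNA Pol peaks and 0.820% of Myc peaks. The median gene length was 8.97 kb with 1 Psi peak, 32.5 kb with 2 or more and 61.4 kb with 5 or more, against 2.17 kb for all genes. Of 1013 genes of 20 kb or more, 343 (33.9%) had a Psi peak within 1 kb, against 7.92% of all protein-coding genes. Inside the gene, 169 (16.7%) had 2 or more peaks, against 1.79% of all, and 682 had none. The part of length was not tested.

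*Mur2B* had 19 peaks and *br* 17, most of them shared. The scores in *br* ran from 1.45 to 2.72 with a median of 2.31, above the median of 1.84 for the whole list. The peaks covered 39.0% of its 89.7 kb, from the upstream start (3674 bp wide, score 2.32) to the last exons (1492 bp, 2.58). RNA Pol had 5 peaks in *br* and Myc 4. *heca* had 15 Psi peaks in 94.5 kb, of which 9 were wholly intronic, and 1 RNA Pol and 1 Myc peak. Its scores ran from 1.43 to 2.47, and its strongest peak, of 2495 bp, was wholly intronic. *hth*, a homeodomain cofactor of Hox proteins expressed in the hinge and notum, had 15 peaks in 132 kb with 3 for RNA Pol and 3 for Myc. Its widest peak was 5650 bp with a score of 2.27, and its outermost start was in no Psi peak.

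Next were *heph* (11 peaks in 169 kb), the polypyrimidine tract binding protein that acts in splicing, and *bi* (11 in 72.8 kb, 9 wholly intronic). *ds* had 10, *Samuel* 10, *inv* 9 and *bs*, the serum response factor of the wing intervein, 8. *inv* had 2.55 peaks per 10 kb over 44.0% of its length. *Ser* had 8 peaks, or 3.61 per 10 kb, over 49.9% of its 22.2 kb. No peak of RNA Pol or Myc overlapped the gene, though 4 of each lay in the span of its group. The outermost start lay in a Psi peak in 12 of the 41 genes with 5 or more.

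**Figure D4:**
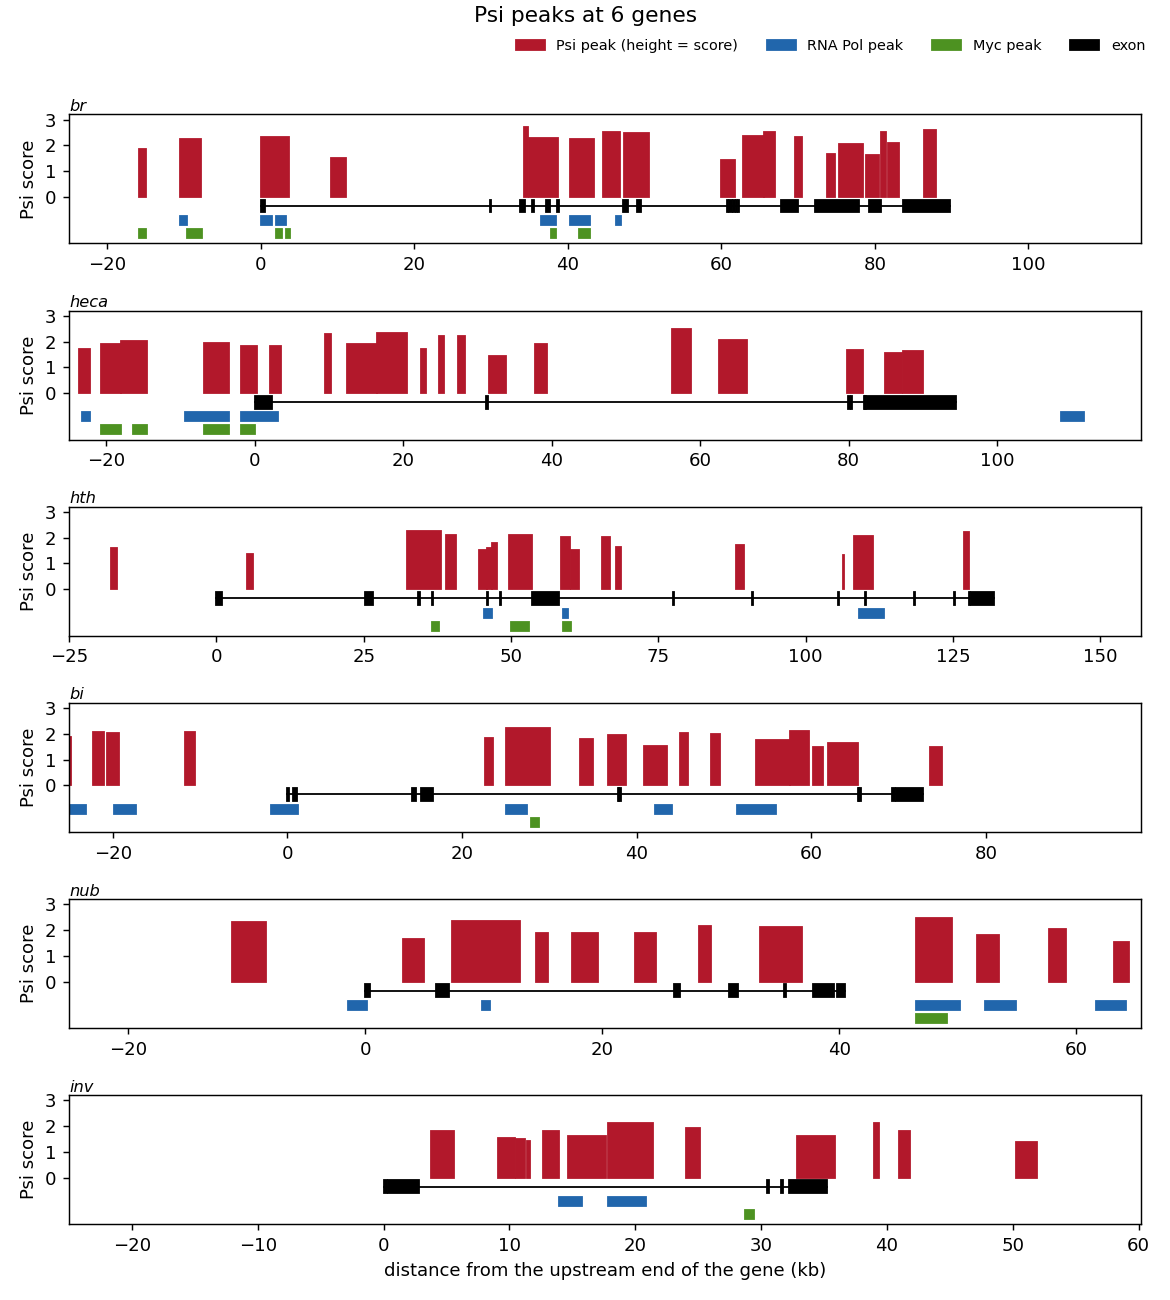
Psi peaks (red, height gives the score) along 6 of the genes with many peaks, with RNA Pol (blue) and Myc (green) peaks and exons (black) below; the axis is the distance in kb from the upstream end of the gene, which reads from left to right. *br* had 17 Psi peaks, *heca* 15, *hth* 15, *bi* 11, *inv* 9 and *nub* 7.

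The functions of bound genes were described with 27 lists of 1424 genes, of which 219 had a Psi peak within 1 kb, against a background of 7.92%. The lists and their members were chosen with earlier results of these data known, so their shares are not independent evidence. Lists of transcription factors and their partners come first, with shares from 20.5% to 40.7%. Of 81 transcription factors of wing and growth (median length 10.1 kb), 33 (40.7%) were bound, led by *bowl* (2.57), *bs* (2.47) and *lola* (2.44), a BTB zinc finger gene with 7 peaks. Of 31 genes of nuclear receptors and the ecdysone response (18.8 kb), 12 (38.7%) were bound: *br* (2.72), *Eip75B* (2.53), an ecdysone-induced nuclear receptor with 6 peaks, and the receptor gene *EcR* (2.33) led them. Of 50 basic helix-loop-helix genes (3.18 kb), 16 (32.0%) were bound, led by *emc* (2.46), a dominant-negative partner of that class, *trh* (2.36) and *dpn* (2.25). Of 83 homeodomain genes (11.9 kb), 17 (20.5%) were bound and 9 had 2 or more peaks. *mirr* (2.58), *nub* (2.34) and *hth* (2.27) led. The homeodomain share was below the 23.7% of genes in the length class of its median, and those of the first pair of lists were above it. That share is of the whole list, which holds shorter genes too. Of the 53 homeodomain genes in the longest class itself, 16 (30.2%) were bound, above the 23.7%. For basic helix-loop-helix genes the class had 6.10%. RNA Pol peaks lay within 1 kb of 35.8%, 35.5%, 28.0% and 16.9% of these lists in order (13.6% of all genes). Myc peaks did so at 32.1%, 45.2%, 32.0% and 19.3% (19.2% of all genes).

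RNA-binding proteins and splicing regulators, the class Psi itself belongs to, had 19 of 55 members bound (34.5%, 6.39 kb). *Psi* (3.22) led, with the limit given above, followed by *heph* (2.95) and *pum* (2.33), a translational repressor. *Imp* (2.31), *Syp* (2.24, with 5 peaks), *Hrb98DE* (2.2), *brat* (2.18) and *sqd* (2.18) were also bound. Of 62 Polycomb, trithorax and remodelling genes (5.83 kb), 12 (19.4%) were bound, with *mod(mdg4)* (3.44), *osa* (2.28) and *jing* (2.22) first. Of 48 genes of Mediator and elongation (2.63 kb), 5 (10.4%) were bound: *MED21* (2.17), *Su(Tpl)* (2.11), *skd* (1.88), *lilli* (1.68) and *Nelf-E* (1.5). *Su(Tpl)* lies inside *Mi-2*, a bound member of the remodelling list, and its 3 peaks were counted for both. The peak counted for *Nelf-E* lay outside the gene. For RNA Pol the shares of these lists in order were 45.5%, 33.9% and 18.8%. For Myc they were 49.1%, 37.1% and 16.7%. All were above the share for Psi, but the shares of all genes also differed. These were 7.92% for Psi, 13.6% for RNA Pol and 19.2% for Myc. The Myc share of the Mediator and elongation list was below that of all genes.

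Genes of cell shape and contact were also described. Epithelial polarity and junction genes had 11 of 38 bound (28.9%, 15.1 kb), with *pyd* (2.54), *ds* (2.46) and *bbg* (2.27); with peaks at an FDR of 0.1%, 7 were bound. Axon guidance and neuronal adhesion genes had 16 of 54 (29.6%, 36.5 kb), with *kirre* (2.34), *Ten-a* (2.33) and *caps* (2.30), a leucine-rich repeat protein. Integrin and matrix genes had 9 of 34 (26.5%, 12 kb), with the perlecan gene *trol* (2.38) and the integrin genes *if* (2.22) and *mew* (2.11). The peak counted for *trol* lay outside the gene. Cytoskeletal genes had 13 of 62 (21%, 4.89 kb), with *Act5C* (2.48), the spectrin gene *kst* (2.34) and *Moe* (2.25). Of 28 cell death genes (3.59 kb), 7 (25.0%) were bound, with *hid* (2.47), *Diap1* (2.25), an inhibitor of caspases, and *Traf4* (2.04). For RNA Pol the shares of these lists in order were 55.3%, 22.2%, 32.4%, 29.0% and 39.3%. For Myc they were 36.8%, 18.5%, 29.4%, 27.4% and 46.4%. Only axon guidance and neuronal adhesion genes had their highest share for Psi. Over all genes the shares were 7.92% for Psi, 13.6% for RNA Pol and 19.2% for Myc. This ranking makes no allowance for those differences.

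Cytoplasmic ribosomal protein genes were bound in spite of their short length. Of 92 with a median of 1.31 kb, 23 (25.0%) had a Psi peak within 1 kb, against 3.19% of genes in the same length class; 19 of the 23 were overlapped and 1 had 2 or more peaks. With peaks at an FDR of 0.1% the count was 15. *RpL3* (2.79), *RpL28* (2.73) and *RpS2* (2.72) led, and the *RpS2* peak did not overlap the gene. RNA Pol peaks lay within 1 kb of 25.0% of this list and Myc peaks of 60.9%. In the same length class these shares were 8.32% and 14.8%, and over all genes 13.6% and 19.2%. Of 73 mitochondrial ribosomal protein genes (0.909 kb) only *mRpL53* (1.75) was bound.

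Other classes were near the background of 7.92% or below it, but their length classes differed. In the length class of glutathione transferases, cuticle proteins and proteasome subunits 3.19% of genes were bound, below the share of each of these lists. For glycolytic and citric acid cycle genes the class had 6.10%. For ion channels it had 23.7%, above the share of that list. Glutathione transferases had 4 of 35 bound (11.4%, 1.06 kb), ion channels 5 of 48 (10.4%, 15.7 kb, led by *Shal* at 2.87), glycolytic and citric acid cycle genes 3 of 39 (7.69%, 3.42 kb: *Pgk*, *Pgd*, *Eno*), cuticle proteins 5 of 70 (7.14%, 1.09 kb) and proteasome subunits 3 of 48 (6.25%, 1.38 kb), none of these overlapped. Immune genes had 1 of 45 (*Drsl6*; 0.754 kb) and cytochrome P450 genes 1 of 83 (*Cyp310a1*; 2.10 kb). None of 111 histone genes (0.529 kb), 29 pickpocket channel genes (2.22 kb), 31 Rab genes (3.09 kb) or 27 genes of the Jonah and trypsin proteases (0.913 kb) was bound. Histone genes are near-identical repeats whose reads may not have been placed.

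Of 53 neurotransmitter receptor and synapse genes with a median length of 24.2 kb, 1 (*Nmdar1*, 1.55) had a Psi peak within 1 kb. In this list 41 genes were in the longest class, and 1 of them (2.44%) was bound within 1 kb. In the wing transcription factor list 50 were in that class and 30 (60%) were bound, against 23.7% of all genes of that class. Neuronal genes were not alike in this: in the axon guidance and neuronal adhesion list 53 were in the longest class and 16 (30.2%) were bound. As the lists were chosen with earlier results of these data known, the contrasts between them are description only.

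**Figure D5:**
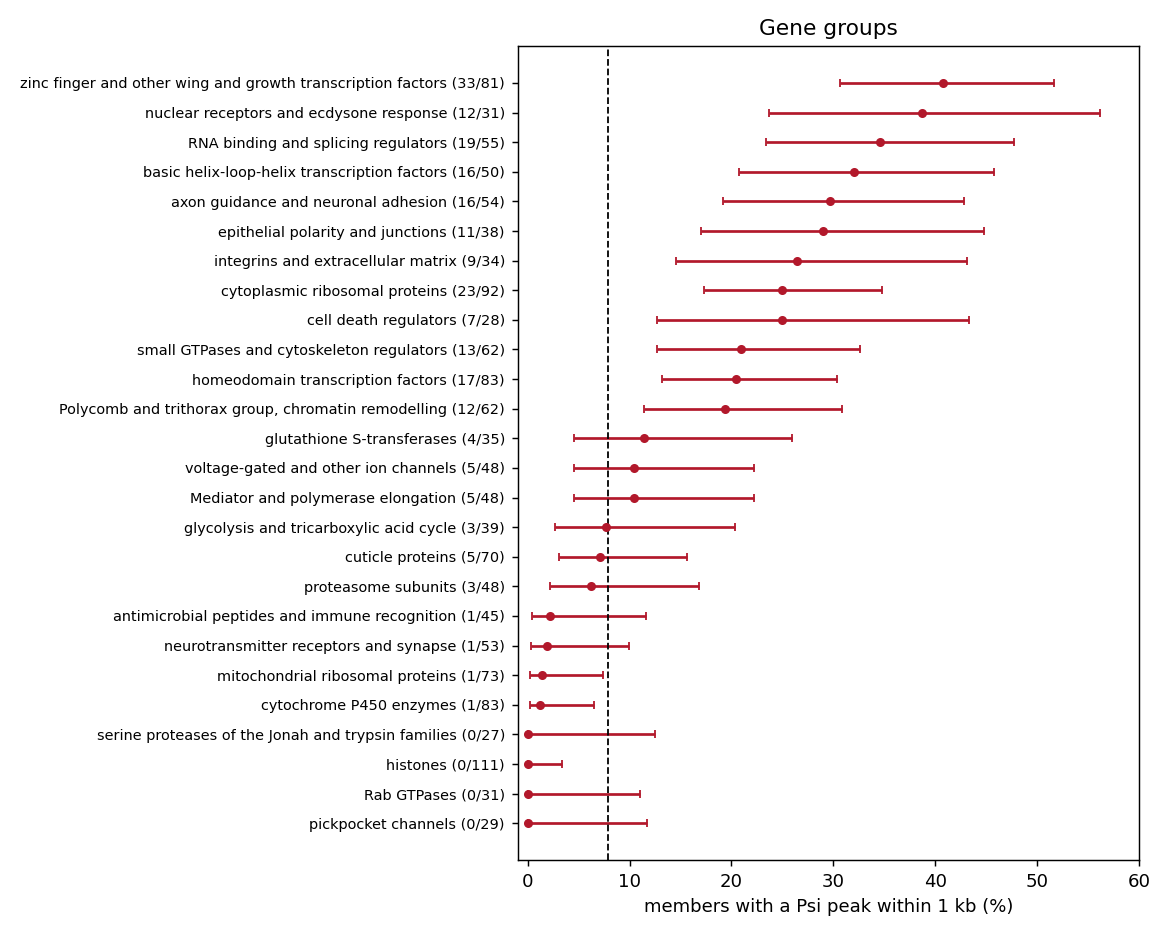
Share of members (%) with a Psi peak within 1 kb in the gene lists described here, with bound and total members in brackets and 95% Wilson intervals that cover counting only. The dashed line marks the 7.92% of all protein-coding genes. Wing and growth transcription factors stood highest (33 of 81) and histones at 0 of 111. The lists were chosen with earlier results of these data known.

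The genes that the study followed as Psi targets all had a Psi peak, but they were chosen on these samples, so their count is not independent evidence. In *Myc* 1 peak of 4431 bp (2.09) covered 23.9% of the gene and was 91.9% intronic. *stg* had 1 peak over its start (2.24) and a second, of 2732 bp (2.17), upstream in *CG45544*. In *tok*, a secreted protease gene, 1 peak of 1427 bp (1.95) lay at the upstream end. *chic*, which encodes profilin, had 2 peaks inside and 1 more within 1 kb, at *eIF4A* (2.04). *dally* and *dlp*, both glypican genes, had 3 and 4 peaks with top scores of 1.67 and 2.17. The 4 peaks of *fz2*, a Wingless receptor gene, were all wholly intronic, with scores of 1.45 to 2.44 and widths of 457 to 6220 bp. *emp* had 2 peaks (1.94 and 1.40) and *Exn* 1 (1.65). Of these genes *stg*, by RNA Pol, and *dally* and *dlp*, by Myc, lacked a peak within 1 kb.

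Sequence under the peaks was described in windows of 1 kb, 3206 in Psi peaks and 133586 over the arms. GAGAG (either strand), the core read by the GAGA factor, occurred in 76.8% of Psi windows and 68.9% of all windows, beside 74.8% for RNA Pol and 72.9% for Myc. TTTTTT occurred in 87.0% (all 78.3%, RNA Pol 89.0%, Myc 84.2%), TTGTTT in 86.2% (all 78.8%, RNA Pol 88.4%, Myc 83.7%) and CACACA in 61.9% (all 53.5%, RNA Pol 64.2%, Myc 61.4%). TATAAA, at 69.3% and 67.5%, and ATCGAT, at 27.6% and 26.2%, were near the level of all windows. In windows with no coding base the gap for TTGTTT narrowed to 86.9% against 84.3% and that for GAGAG stayed, at 76.8% against 68.9%. Those for TTTTTT (88.2% against 85.7%) and CACACA (63.4% against 58.1%) also narrowed. ATCGAT was then at 27.0% against 23.1% (RNA Pol 25.3%, Myc 27.6%), and TATAAA was lower in Psi windows, at 69.7% against 72.1%. There GAGAG was as frequent for RNA Pol (76.9%) and near that level for Myc (76.0%). The median GC content was 42.4% in Psi windows and 41.8% in all. GATC itself occurred 3.53 times per kb in Psi windows, 2.79 in all, 2.71 in RNA Pol windows and 3.49 in Myc windows. In wholly intronic windows the values were 3.29 for Psi and 2.06 for all introns.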

How the data were processed

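Wing disc DNA from TaDa was processed by the authors with damidseq_pipeline, which aligned reads to BDGP6 with Bowtie2 and formed a normalised ratio of Dam-fusion to Dam at GATC fragments. Replicates (n = 3) were averaged, and find_peaks was run at 1% FDR. Tool versions were not given in the sources used here. A score and an FDR stand beside every peak in the lists as deposited, and how the score is formed is not stated. Read depth is unknown.

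Peaks were set against 13945 protein-coding genes of Ensembl release 115 (BDGP6.54) and the Release 6 genome of RefSeq with Python 3.11.15 scripts (pandas 2.3.3, numpy 2.4.6), which were tested on simulated peaks. A gene was bound when a peak lay within 1 kb. Groups of peaks had gaps of at most 10 kb. Wilson intervals are at 95%. Of 871 names in the gene lists, 27 matched by an older name and 11 did not match. Members and lists were chosen with earlier results of these data known, and the cytochrome P450 list was corrected after its values were seen. Named genes were those at the 10 highest-scoring, 5 widest and 5 narrowest peaks, the 10 genes with most peaks, those in the 5 largest groups of peaks, the 5 introns with most bound bases, the top 3 of each list and the study's targets; other names were chosen after their values were seen. Alternatives changed the FDR, merging, gaps, transcripts and gene limits. Sample descriptions that named RNAi conditions went against the titles and were not used. The result of 1 gene list is not reported here.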

Additional observations from a re-analysis of the deposited data

How the results depend on the processing

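No paired analysis was possible because the lists were called on averages of the replicates, and for the same reason no replicate could be left out. With peaks at an FDR of 0.1% the median width was 1831 bp in place of 1555 bp and 30 groups held 5 or more peaks in place of 53. Merging peaks under 500 bp apart gave 1678.5 bp and 34 groups, and a gap of at most 5 kb gave 35 groups. The intron share was 56.8% by peak midpoints and 53.7% with 1 transcript a gene, in place of 59.8%. Counting the outermost start of each gene alone gave 11.9% of peaks with a start site in place of 19.5%. The other planned settings kept their values within counting error or 1.5 times: bound genes stayed between 823 and 1291, genes with 2 or more peaks between 172 and 275, bound members of the gene lists between 178 and 235, and GAGAG at 76.8% of windows. By list, the count of bound members moved by more than 1.5 times in 4 of 27 lists with an FDR of 0.1% (cytoplasmic ribosomal proteins 15 in place of 23, polarity and junctions 7 in place of 11, Mediator and elongation 3 in place of 5, proteasome 1 in place of 3), in 4 with overlap alone and in 5 within 2 kb. Depth per sample is unknown, so the limit it sets on undetected peaks cannot be given.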
